A study of Mus musculus with 10 samples.

Results

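AP-1 is a family of dimeric transcription factors, and 9 of its genes were described here in mouse dendritic cells grown from bone marrow: Fos, Fosb, Fosl1, Fosl2, Jun, Junb, Jund, Maff and Batf. Each gene was followed through every probe set that the platform table assigned to that symbol alone, which gave 11 of the 22690 probe sets and 9 of the 12393 genes on the array. Of the 9 genes, 8 passed the filter on dim signals and were tested with 7474 genes in all; Fosb did not. Measurements came from 10 arrays, 5 of C57BL/6 wild-type cells and 5 of Cd14-/- C57BL/6 cells, all from mice aged 6-8 weeks. CD14 is the surface protein that hands bacterial lipopolysaccharide (LPS) to the receptor TLR4. In each genotype, 1 array came from unstimulated cells harvested 24 h after plating, 2 from cells given 1 µg/ml LPS for 48 or 60 h, and 2 from cells given the same LPS with 50 nM thapsigargin for 48 or 60 h. Thapsigargin stops the pump that returns calcium to the endoplasmic reticulum, so that calcium rises in the cytosol. The series asked about genes under NFAT, a transcription factor that calcium switches on. All cells were grown in the supernatant of B16 tumour cells that secrete GM-CSF and were used when more than 90% carried CD11c. No condition was repeated, no thapsigargin-alone condition was analysed here, and the unstimulated cells were harvested earlier than the others, so that LPS and time in culture cannot be told apart.

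The AP-1 proteins pair through a leucine zipper and grip DNA with an adjacent basic region. FOS proteins need a JUN partner, whereas JUN proteins can also pair with each other, and small MAF and BATF proteins lack the activating domain of FOS and JUN and pair with other basic leucine zipper proteins. MAP kinases raise both the transcription and the activity of several members soon after a cell is stimulated, and calcium signals add to this through calcineurin and calcium-dependent kinases. NFAT binds DNA together with FOS and JUN at many cytokine genes, and BATF acts with JUN proteins and IRF4 or IRF8 in dendritic cells and lymphocytes.

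Promoter windows of the genes that carried the main differences are printed first, because members of the family are known to be switched on through short elements close to the start of transcription. RefSeq (GRCm38.p6) gave windows for 8 of the 9 genes, 10 windows in all, and Fosl1 was not matched. The 250 bases before each start were searched on both strands for the AP-1 site TGANTCA, the CRE-like site TGACNTCA, the NFAT core GGAAA, the TATA box TATAAA, the CArG box that binds SRF and the NF-kappaB site. Fosl2 (chr5:32136222-32136471, plus strand) and Fos (chr12:85473640-85473889, plus strand) are shown because both differed between the genotypes under LPS. Junb (chr8:84978749-84978998, minus strand) and the middle of 3 annotated Maff starts (chr15:79347270-79347519, plus strand) are shown because both rose with Fosl2 after LPS in wild-type cells. Which of the 3 Maff windows to print was chosen with its matches known. Capitals mark every match other than the short NFAT core.
Fosl2: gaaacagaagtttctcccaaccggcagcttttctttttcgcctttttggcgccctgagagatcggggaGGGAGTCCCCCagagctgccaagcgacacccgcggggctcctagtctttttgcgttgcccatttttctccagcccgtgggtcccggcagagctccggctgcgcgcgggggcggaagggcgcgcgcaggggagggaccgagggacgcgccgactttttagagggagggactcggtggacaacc
Fos: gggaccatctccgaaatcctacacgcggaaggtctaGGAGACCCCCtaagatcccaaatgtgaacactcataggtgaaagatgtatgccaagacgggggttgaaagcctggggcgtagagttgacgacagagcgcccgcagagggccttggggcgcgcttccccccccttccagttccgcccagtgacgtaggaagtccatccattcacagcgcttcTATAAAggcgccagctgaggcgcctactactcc
Junb: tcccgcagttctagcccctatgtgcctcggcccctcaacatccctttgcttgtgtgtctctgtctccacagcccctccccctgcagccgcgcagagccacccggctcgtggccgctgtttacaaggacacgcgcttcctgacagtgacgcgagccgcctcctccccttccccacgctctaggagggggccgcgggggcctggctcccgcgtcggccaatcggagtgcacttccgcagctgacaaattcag
Maff: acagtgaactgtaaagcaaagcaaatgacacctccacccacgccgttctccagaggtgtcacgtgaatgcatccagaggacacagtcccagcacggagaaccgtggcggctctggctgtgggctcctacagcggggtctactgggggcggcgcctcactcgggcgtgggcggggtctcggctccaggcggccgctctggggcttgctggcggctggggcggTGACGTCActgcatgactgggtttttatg

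In Fosl2 the capitals are 2 overlapping NF-kappaB matches, whose first bases lie 182 and 181 bases before the start. In Fos they are an NF-kappaB match that begins 214 bases before the start and TATAAA at 33 bases. The Maff window holds TGACGTCA, which begins 29 bases before the start, and the Jun window, not printed, holds TGACATCA at 45 bases. Of the other windows not printed, Fosb has an NF-kappaB match at 188 bases, and the third Maff start has one at 70 bases and TGACATCA at 45 bases. GGAAA was found in the windows of Jun, Batf and the other 2 Maff starts. No searched motif matched in the Junb window. An NF-kappaB match was found in 3.90% of all 32851 windows of this length, a CRE-like match in 7.49%, TATAAA in 12.4%, TGANTCA in 6.75%, GGAAA in 55.6% and a CArG box in 1.47%. No window of a member held TGANTCA. A match describes letters only and was not measured as a binding site. An element farther from the start than the window, or with letters other than those searched, would be missed. The lack of a match in Fos or another member therefore does not show that the gene lacks such an element.

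Several facts of the arrays bear on the values. Cd14 itself read 1499 on the unstimulated and 15538 to 17729 on the stimulated wild-type arrays, and 1.85 to 7.35, under the floor of 13.4, on those from CD14-deficient cells. Itgax, which encodes CD11c, read 750.4 to 7838, and the class II gene H2-Ab1 read 5942 to 9822. Summed signals of other cell types were 20.2 to 109 for 4 T and NK cell markers, 46.1 to 413 for 3 B cell markers and 3.73 to 25.8 for 2 erythroid markers; the B cell maximum came from the 48 h LPS culture without CD14, through Ms4a1 at 341. The 8 neutrophil markers summed to 3243 to 12269, led on the stimulated arrays by Lcn2 (2532 to 10463, against 257 and 373 unstimulated). S100a8 went from 5953 and 5674 on the unstimulated arrays to 499 to 1812, and S100a9 from 2410 and 3692 to 6.21 to 238; of 5 tested neutrophil markers, LPS called 3 lower and 1 higher in wild-type cells and 2 lower and 1 higher in CD14-deficient cells. The 5 stromal markers summed to 586 to 3256, with Dcn at 921 and 2707 in wild-type and 89.2 and 416 in CD14-deficient LPS cells. On both unstimulated arrays 4 of the 5 were at or under the floor. Of 3 tested, LPS called 2 higher and 1 lower in wild-type cells, where 7.69% and 8.24% of all genes were called. In CD14-deficient cells it called 2 higher and 0 lower, where 2.17% and 2.01% of all genes were. The 5 mast cell and basophil markers summed to 291 to 2318, with Hdc at 2.01 and 2.13 unstimulated and 749.8 to 1716 stimulated, and Kit at 1347 in that same 48 h culture and 148 to 501 on the others. The CD14-deficient LPS array at 48 h stood apart: it lay at 60.4 on the second principal component, against -25.0 to 5.12 for the others, came from the smallest cRNA yield (15 µg, up to 53.1 µg elsewhere), and had 18S control signals of 114 to 385. Only the wild-type LPS array at 60 h was near that, at 217 to 685, and the other 8 arrays read 1426 to 12656. On the same array 12 macrophage markers summed to 21659, against 28565 to 62082 on the others, and 14 dendritic markers to 74186, against 40917 to 62356. The part these differences play in the AP-1 values was not tested. In bulk RNA, fewer cells of a type and less RNA per cell cannot be told apart.

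LPS raised Fosl2, Junb and Maff in wild-type cells, 3 of the 8 tested genes where 7.69% of all genes were called higher. Fosl2 entered the test only through 6 stimulated arrays, which hold the higher group of each of its calls. Its part in this and the later counts is therefore a description only. In CD14-deficient cells LPS lowered Fos, 1 of 8 where 2.01% of all genes were called lower, and the other 7 did not pass. Under LPS, Fosl2 and Fos were higher with CD14 than without it, 2 of 8 against 2.61% of all genes. Thapsigargin added to LPS raised Fosl2 and Fos in CD14-deficient cells. With Fosl1, which entered the test only through arrays with thapsigargin, 3 of 8 were called against 3.43% of all genes, and with no filter Fosl2 was the 1 call left. The same addition called 0 of 8 in wild-type cells, where 0.0535% of all genes were called. The test of whether a response differed between the genotypes passed for no gene when all arrays were used. Calls throughout are limma's at a Benjamini-Hochberg adjusted p under 0.05 over the 7474 genes, and signals are MAS5 signals scaled to a common trimmed mean.

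**Figure D1:**
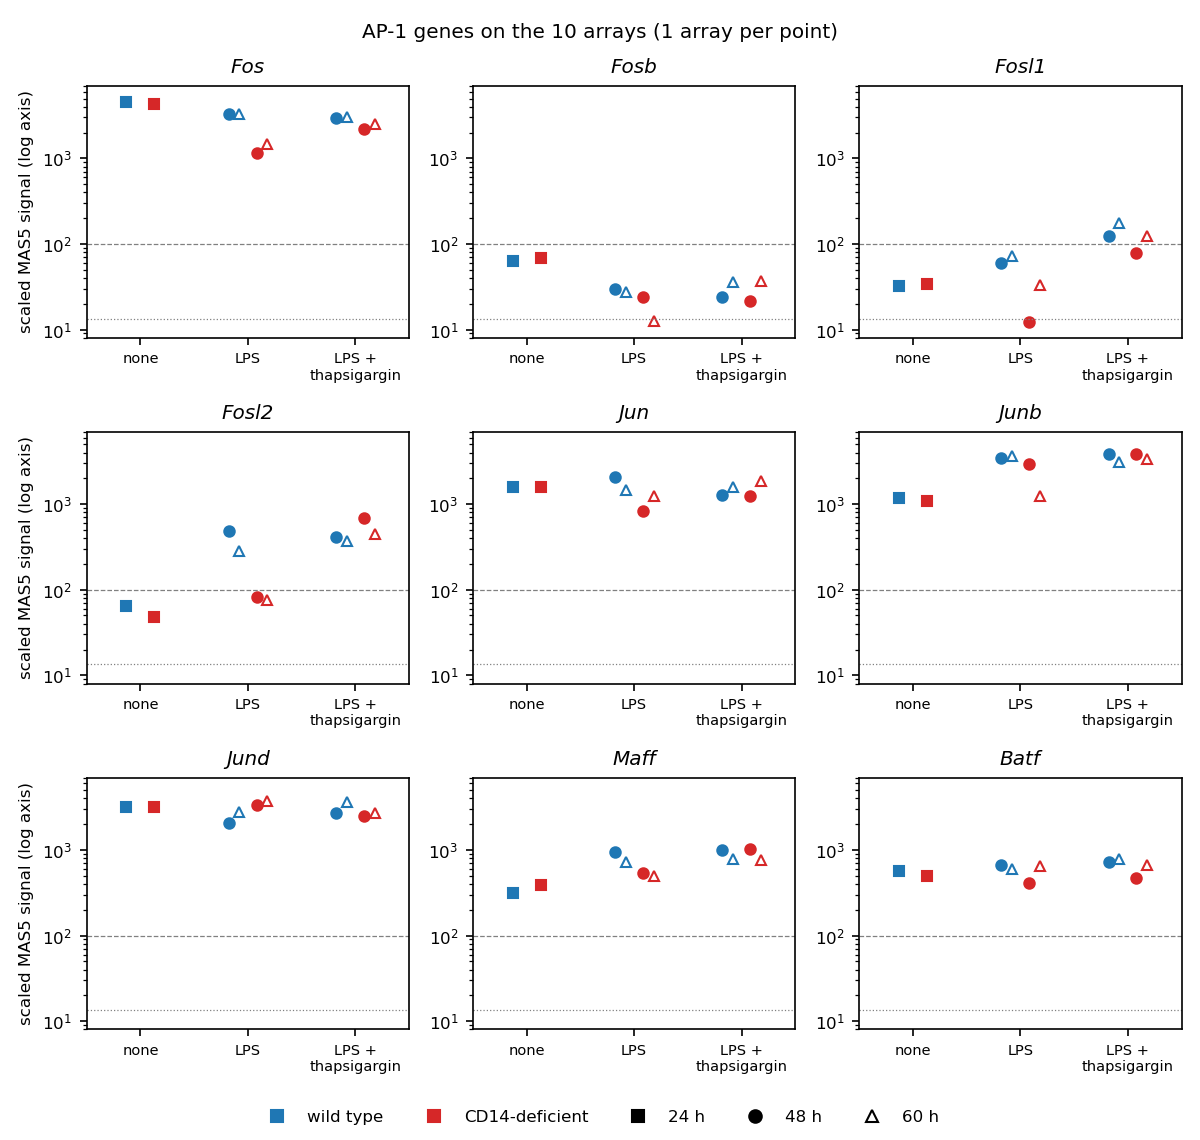
Scaled MAS5 signal on a log axis for each of the 9 AP-1 genes, with 1 point for each of the 10 arrays by treatment (horizontal), genotype (colour) and harvest time (symbol); the dotted line is the floor of 13.4 and the dashed line the filter of 99.2. Fosl2 reads 75.6 and 81.6 in CD14-deficient LPS cells and at least 281 in every other stimulated culture.

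Fosl2 encodes FRA-2, a FOS protein without the strong activating domain of c-FOS that builds up late after stimulation. Its scaled signal in wild-type cells was 64.9 unstimulated, 488 and 281 after LPS for 48 and 60 h, and 411 and 373 after LPS with thapsigargin. In CD14-deficient cells it was 48.7 unstimulated, 81.6 and 75.6 after LPS, and 691 and 444 with thapsigargin added. Both CD14-deficient LPS arrays thus lay close to the unstimulated arrays, under the filter of 99.2, and below the other 6 stimulated arrays without overlap. The gene passed the filter through those 6 arrays, which hold the higher group of each of its calls. With no filter the call between the genotypes under LPS was lost (limma adjusted p = 0.0586), and its other calls were kept. LPS raised it 5.71-fold in wild-type cells (log2 change 2.51 ± 0.32 SE, limma adjusted p = 0.00893, 95% interval 1.73 to 3.30). In CD14-deficient cells the LPS change was 0.69 ± 0.32 (adjusted p = 0.269), and the difference of the 2 responses was 1.82 ± 0.45 (adjusted p = 0.494).

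Under LPS, Fosl2 was 4.72-fold higher with CD14 than without it (log2 2.24 ± 0.26, limma adjusted p = 0.0184), by 2.58 at 48 h and 1.90 at 60 h. Thapsigargin raised it 7.05-fold in CD14-deficient cells (2.82 ± 0.26, adjusted p = 0.0112), by 3.08 and 2.55 at the 2 times. In wild-type cells the change with thapsigargin was 0.08 ± 0.26 (adjusted p = 0.943, interval -0.56 to 0.72). The difference between those 2 thapsigargin responses was -2.74 ± 0.37, which did not pass over all genes (adjusted p = 0.163). The genotype contrast and the thapsigargin contrast without CD14 use the same 2 CD14-deficient LPS arrays.

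Fos encodes c-FOS, the founding immediate early member, which is best known for a burst of transcription in the first hour. Its signal in wild-type cells was 4499 unstimulated, 3276 and 3273 after LPS, and 2924 and 3057 with thapsigargin. Without CD14 it was 4294 unstimulated, 1147 and 1454 after LPS, and 2203 and 2501 with thapsigargin. The 2 unstimulated arrays were thus the highest of the 10, and the 2 CD14-deficient LPS arrays the lowest. LPS lowered Fos in CD14-deficient cells 3.32-fold (log2 -1.73 ± 0.19, limma adjusted p = 0.0162). In wild-type cells the change was -0.46 ± 0.19 (adjusted p = 0.151), and the difference of responses was 1.28 ± 0.27 (adjusted p = 0.404).

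Under LPS, Fos was 2.54-fold higher with CD14 than without (log2 1.34 ± 0.15, limma adjusted p = 0.0173), by 1.51 at 48 h and 1.17 at 60 h. Thapsigargin raised Fos 1.82-fold in CD14-deficient cells (0.86 ± 0.15, adjusted p = 0.0316). Both of these thapsigargin arrays still lay below all 4 stimulated wild-type arrays: against wild-type LPS cells the difference was -0.48 ± 0.15 (adjusted p = 0.267). In wild-type cells thapsigargin gave -0.13 ± 0.15 (adjusted p = 0.81). The fall relative to unstimulated CD14-deficient cells was still called with thapsigargin present, at -0.87 ± 0.19 (adjusted p = 0.0263).

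Fosl1 encodes FRA-1, the other late FOS relative. The probe set used for it, 1417487_at, read 32.0 in unstimulated wild-type cells, 60.6 and 72.8 after LPS, and 124 and 174 with thapsigargin. Without CD14 it read 34.4 unstimulated, 12.1 and 33.4 after LPS, the first of these under the floor, and 77.4 and 124 with thapsigargin. The 4 arrays with thapsigargin were thus the highest in both genotypes, and the gene passed the filter through 3 of them only. For thapsigargin in CD14-deficient cells the model gave a log2 difference of 2.21 ± 0.35 (limma adjusted p = 0.0238), which takes the 48 h LPS array at the floor and so has no exact size. Because the arrays with thapsigargin also admitted the gene to the test, this call is a description only, and with no filter it was lost (adjusted p = 0.073). In wild-type cells the same addition gave 1.15 ± 0.35 (adjusted p = 0.384), with 1.04 at 48 h and 1.26 at 60 h, and the difference of the 2 responses was -1.06 (interval -2.27 to 0.15, adjusted p = 0.418).

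The other Fosl1 probe set, 1417488_at, read between 0.637 and 36.2 and was at or under the floor on 6 of the 10 arrays, so it was not tested. Its 4 thapsigargin arrays read 36.2 and 24.9 in wild-type cells and 10.6 and 23.2 without CD14, against at most 22.3 on the other 6. Fosb, which encodes another FOS protein with an activating domain, read at most 69.2 and never reached the filter. Its 2 highest arrays were the unstimulated ones, at 63.3 and 69.2, and the 8 stimulated arrays read 12.7 to 37.0. Fitted without the filter, over 12393 genes, Fosb gave -1.15 ± 0.57 for LPS in wild-type and -1.95 ± 0.57 in CD14-deficient cells, with limma adjusted p = 0.338 and 0.214.

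Among the JUN genes, Junb was the one that LPS raised. Junb encodes a JUN protein that restrains c-JUN at some genes and can replace it at others. Its signal in wild-type cells was 1188 unstimulated, 3494 and 3678 after LPS, and 3851 and 3140.2 with thapsigargin. In CD14-deficient cells it was 1086 unstimulated, 2945 at 48 h and 1245 at 60 h of LPS, and 3894 and 3387 with thapsigargin. The 60 h array of CD14-deficient LPS cells lay close to the unstimulated ones, whereas the 48 h array of that condition lay nearer the other stimulated arrays. LPS raised Junb 3.02-fold in wild-type cells (log2 1.59 ± 0.39, limma adjusted p = 0.0451), and without CD14 the value was 0.82 ± 0.39 (adjusted p = 0.277).

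The genotype difference of Junb under LPS was 0.25 on the log2 scale at 48 h and 1.56 at 60 h, which the model combined as 0.91 ± 0.32 (limma adjusted p = 0.139). Thapsigargin without CD14 gave 0.40 at 48 h and 1.44 at 60 h (0.92 ± 0.32, adjusted p = 0.127), from the same 2 LPS arrays. Of the 7474 genes, 17.4% were at least 2-fold apart between the 2 CD14-deficient LPS arrays, compared with 6.57% in wild-type LPS cells, 1.54% in wild-type and 2.53% in CD14-deficient cells with thapsigargin. Junb, 1.24 lower at 60 h in the log2 signals there, was among the former, as was Fosl1, whose 60 h value was 1.32 higher.

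Jun encodes c-JUN, the partner of the FOS proteins in the classical dimer, and was represented by 2 probe sets that did not move together. The set used for the gene, 1417409_at, read 1574 in unstimulated wild-type cells, 2068 and 1459 after LPS, and 1276 and 1588 with thapsigargin. The CD14-deficient cells read 1591 unstimulated, 831 and 1238 after LPS, and 1248 and 1865 with thapsigargin. Both CD14-deficient LPS arrays were the lowest of the 10, the 60 h one only just, and the other groups overlapped. The genotype difference under LPS was 0.78 ± 0.30 in log2 (limma adjusted p = 0.161), with 1.32 at 48 h and 0.24 at 60 h.

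The other Jun set, 1448694_at, read 725 in unstimulated wild-type cells, 211 and 521 after LPS, and 202 and 346 with thapsigargin. Without CD14 it read 675 unstimulated, 636 and 555 after LPS, and 178 and 366 with thapsigargin. Here the 2 CD14-deficient LPS arrays lay just below the unstimulated ones and above all other stimulated arrays, the opposite order to 1417409_at. In a fit over 11649 single probe sets the genotype difference under LPS was -0.84 ± 0.37 (limma adjusted p = 0.214) and thapsigargin without CD14 gave -1.22 ± 0.37 (adjusted p = 0.102), against 0.59 ± 0.30 (adjusted p = 0.248) for 1417409_at in the gene fit. No comparison called Jun by either set, and which set better follows the transcript was not tested.

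**Figure D2:**
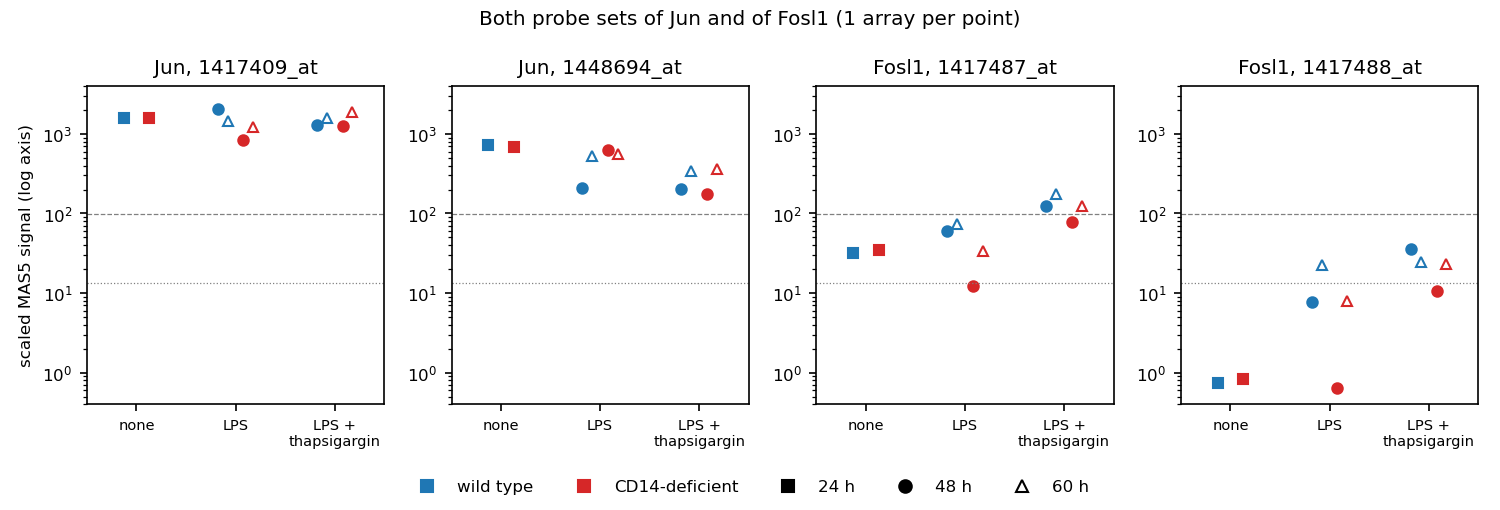
Scaled MAS5 signal on a log axis of the 2 probe sets of Jun and the 2 of Fosl1, with 1 point per array, by treatment, genotype and harvest time; the dotted line is the floor and the dashed line the filter. The Jun sets place the CD14-deficient LPS arrays at opposite ends of the stimulated range, and the second Fosl1 set is at or under the floor on 6 arrays.

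Jund encodes the JUN protein that resting cells hold at a steady level, and it varied least of the 8 tested genes. Its signal was 3155 in unstimulated wild-type cells, 2079 and 2792 after LPS, and 2709 and 3591 with thapsigargin. In CD14-deficient cells it was 3196 unstimulated, 3394 and 3702 after LPS, and 2507 and 2677 with thapsigargin. Under LPS the 2 arrays without CD14 lay above the 2 with it, a log2 difference of -0.56 ± 0.16 for wild type minus CD14-deficient (limma adjusted p = 0.0927). Thapsigargin went with 0.37 ± 0.16 in wild-type cells (adjusted p = 0.498) and with -0.45 ± 0.16 without CD14 (adjusted p = 0.131). The difference of these opposite values was 0.82 ± 0.22 (adjusted p = 0.275).

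Maff encodes a small MAF protein, which binds DNA in pairs with other basic leucine zipper proteins and represses when paired with itself. Its signal in wild-type cells was 314 unstimulated, 934 and 723 after LPS, and 990.1 and 785 with thapsigargin. In CD14-deficient cells it was 394 unstimulated, 537 and 489.9 after LPS, and 1016 and 764 with thapsigargin. The CD14-deficient LPS arrays lay between the unstimulated arrays and the other 6 stimulated arrays, without overlap. LPS raised Maff 2.62-fold in wild-type cells (log2 1.39 ± 0.21, limma adjusted p = 0.0129) and gave 0.38 ± 0.21 without CD14 (adjusted p = 0.347). The genotype difference under LPS was 0.68 ± 0.17 (adjusted p = 0.0779), the effect of thapsigargin without CD14 was 0.78 ± 0.17 (adjusted p = 0.0555), and neither was called.

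Batf, whose protein pairs with JUN proteins and works with IRF4 and IRF8, was measured between 415 and 779 on all 10 arrays. Wild-type cells read 561 unstimulated, 672 and 599 after LPS, and 726 and 779 with thapsigargin. Cells without CD14 read 494 unstimulated, 415 and 642 after LPS, and 466 and 661 with thapsigargin. The conditions overlapped, and no comparison called Batf. Its LPS change was 0.18 ± 0.30 in wild-type cells (limma adjusted p = 0.726, interval -0.56 to 0.92).

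**Figure D3:**
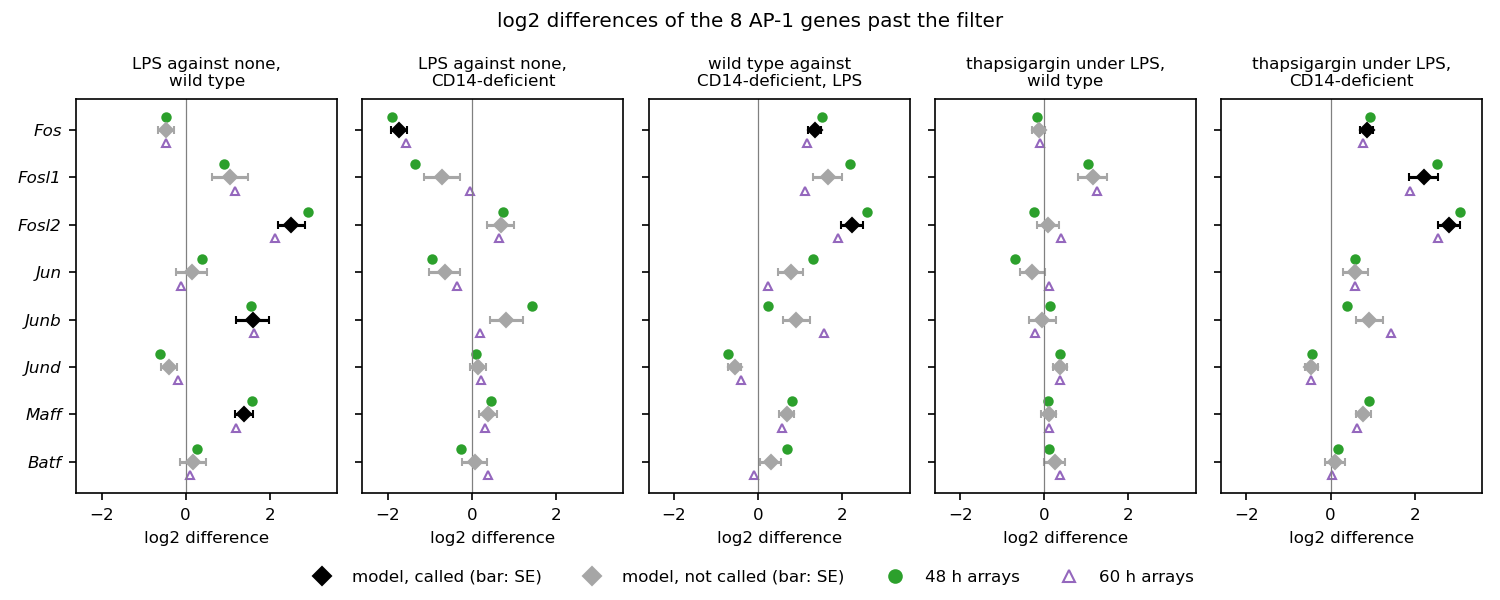
Log2 differences of the 8 tested AP-1 genes in 5 comparisons: diamonds are the model's values with standard errors as bars, black where called at an adjusted p under 0.05, and circles and triangles are the differences of the 48 h and the 60 h arrays. The called genes are Fosl2, Junb and Maff for LPS in wild type, Fos for LPS without CD14, Fos and Fosl2 for the genotypes under LPS, and Fos, Fosl1 and Fosl2 for thapsigargin without CD14.

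By comparison, LPS in wild-type cells called 3 of the 8 tested AP-1 genes higher and 0 lower, where 7.69% of all genes were called higher and 8.24% lower. The counts here and for the comparisons below include Fosl2, which only 6 stimulated arrays, among them its higher groups, admitted to the test. The median log2 change of the 8 was 0.61, against -0.03 over all genes. Fosl2 lost its call only when the wild-type LPS array at 48 h was left out (adjusted p = 0.0566). Maff lost its own without any 1 of the 4 stimulated wild-type arrays or of the 2 CD14-deficient thapsigargin arrays (adjusted p up to 0.0702, value 1.35 to 1.43), as did Junb (up to 0.162, value 1.27 to 1.92). Junb also lost it under 6 of 10 other processing choices (adjusted p up to 0.139). Maff lost it under 0 of 10, and Fosl2 under 0 of 9. The remaining choice, a filter on the mean above the 60th percentile, left Fosl2 out of the test. Without either CD14-deficient LPS array, Fos (-0.46) and Fosl1 (1.05) were called as well. Their values were the same as with all 10 arrays, and only the spread was smaller. Calls over all genes also rose in some fits with an array left out.

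LPS in CD14-deficient cells called 0 of 8 higher and 1 lower, where 2.17% of all genes were called higher and 2.01% lower. The median of the 8 was 0.11, against 0.03 over all genes. The call of Fos was lost without any 1 of the 4 stimulated wild-type or the 2 CD14-deficient thapsigargin arrays (adjusted p up to 0.0747), while its value stayed between -1.86 and -1.60. When the 60 h LPS array of these cells, in which Junb was low, was left out, Junb was called higher too, at 1.37. Fosl1, then represented by 1 array under the floor, was called lower with no exact size. Both rest on the 1 LPS array left in these cells, and calls over all genes also rose in some fits with an array left out.

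Under LPS, the comparison of wild type with CD14-deficient cells called 2 of 8 higher and 0 lower in wild type, where 2.61% of all genes were called higher and 2.57% lower. The median of the 8 was 0.84, against -0.08 over all genes, and 7 of the 8 had an unadjusted p under 0.05 (as had 2050 of the 7474 genes). Fosl1 was next in order at 1.65 ± 0.35 (limma adjusted p = 0.055), a value without exact size because the CD14-deficient 48 h array was at the floor. Both calls were lost without any 1 of the same 6 stimulated arrays (adjusted p up to 0.173 for each), with values of 1.21 to 1.47 for Fos and 1.99 to 2.49 for Fosl2; that of Fosl2 was also lost with no filter (adjusted p = 0.0586). Both were kept without either CD14-deficient LPS array. The gap between those 2 arrays then left the spread, so this does not show that the calls are independent of the 48 h array that stood apart. Fosl1 was then called too, at 1.23 without the 48 h array. Without the 60 h array it was taken against the 48 h array under the floor and has no exact size. Junb was called as well without the 48 h array (1.46), and Maff (0.80) and Jund (-0.65) without the 60 h array. Calls over all genes also rose in some fits with an array left out.

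Thapsigargin added to LPS in wild-type cells called 0 of 8 by limma, where 0.0535% of all genes were called, and 1 of the 8, Fosl1, had an unadjusted p under 0.05 (770 of the 7474 genes). In CD14-deficient cells the same addition called 3 of 8 higher and 0 lower, where 3.43% of all genes were called higher and 3.2% lower. The 3 count Fosl1, which only arrays with thapsigargin admitted to the test. The median of the 8 there was 0.82, against -0.00 over all genes, and in wild-type cells it was 0.09. The calls of Fos and Fosl1 were lost without any 1 of the same 6 stimulated arrays (adjusted p up to 0.345 and 0.281, values 0.73 to 0.99 and 1.79 to 2.63), and that of Fosl2 without any 1 of the 4 thapsigargin arrays (up to 0.188, value 2.61 to 3.02). Without either CD14-deficient LPS array, Fosl1 was called in wild-type cells too, at an unchanged 1.15. Maff was then called in CD14-deficient cells (0.66 without the 48 h and 0.90 without the 60 h array). Junb was called there without the 48 h array (1.47), and Jund without the 60 h array (-0.54). Calls over all genes also rose in both genotypes in some fits with an array left out. With no filter the calls of Fosl1 and Fos were lost, and that of Fos also failed without scaling and without the intensity trend (up to 0.0634).

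LPS with thapsigargin against unstimulated cells called Fosl2, Junb and Maff higher in both genotypes. With Fosl1, which only arrays with thapsigargin admitted to the test, 4 of 8 were called higher and 0 lower in wild type. Of all genes, 11.6% were called higher there and 9.51% lower. In CD14-deficient cells 3 were called higher and 1, Fos, lower, where 11% of all genes were called higher and 10.4% lower. These comparisons share the unstimulated arrays with those of LPS alone. Fosl2 was 6.03-fold higher with CD14 and 11.4-fold higher without (limma adjusted p = 0.00672 and 0.00358), Junb 2.93- and 3.35-fold (0.0407 and 0.0291), and Maff 2.81- and 2.23-fold (0.00921 and 0.0173). Fosl1, which only arrays with thapsigargin carried past the filter, was called in wild type at 4.59-fold (adjusted p = 0.0206) and not without CD14 at 2.85-fold (adjusted p = 0.0545). Its call is a description only, because such arrays also form the higher group. Fosl2 in CD14-deficient cells was the only one of these calls that no left-out array ended (adjusted p up to 0.0438). In wild type the calls of Fosl2 and Maff were lost without either wild-type thapsigargin array (adjusted p up to 0.0729 and 0.0938), that of Fosl1 without any 1 of the 4 thapsigargin arrays (0.141) and that of Junb without any 1 of these or of the 2 wild-type LPS arrays (0.205). In CD14-deficient cells those of Fos, Junb and Maff were lost without any 1 of the 4 thapsigargin arrays (adjusted p up to 0.179, 0.173 and 0.151). Other processing ended the call of Junb in wild type under 3 choices (adjusted p up to 0.135) and without CD14 with no filter (0.105), of Fosl1 in wild type with no filter (0.0594) and of Fos without CD14 with no scaling (0.0731). Without either CD14-deficient LPS array, Fos was called lower in wild type (-0.59) and Fosl1 higher without CD14 (1.51). Both values were the same as with all 10 arrays, and calls over all genes also rose in some fits with an array left out.

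Between the genotypes under LPS with thapsigargin, limma called 0 of 8, where 0.0268% of all genes were called, and 0 of 8 had an unadjusted p under 0.05 (329 of the 7474 genes). Fosl2 gave -0.50 (interval -1.14 to 0.14), Fos 0.35 (-0.03 to 0.73) and Maff 0.00 (-0.43 to 0.43) for wild type minus CD14-deficient. Set against wild-type cells with LPS alone, CD14-deficient cells with LPS and thapsigargin gave 0 limma calls among the 8, where 0.375% of all genes were called, and 1 of the 8, Fos, and 1069 of the 7474 genes had an unadjusted p under 0.05. The widest values were 0.58 (-0.06 to 1.22) for Fosl2 and 0.56 (-0.29 to 1.41) for Fosl1. Without either CD14-deficient LPS array, Fos was called lower there (-0.48, adjusted p = 0.0235 and 0.0234). The intervals of these 2 comparisons do not show that the cells were alike. Unstimulated cells of the 2 genotypes gave 0 calls among the 8 (0.0134% of all genes, 0 of 8 and 86 of 7474 genes at an unadjusted p under 0.05), from 1 array each.

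The limma tests of whether a response differed between the genotypes called no gene of the 7474, so the percentage called was 0 for both. For the LPS response, 613 genes had an unadjusted p under 0.05, among them Fos, Fosl1, Fosl2 and Maff. For the thapsigargin response, 994 genes did, among them Fos, Fosl2, Jund and Maff. With all 10 arrays, a call in 1 genotype and not in the other was therefore not shown to differ between them for any member. These counts turned on the 2 CD14-deficient LPS arrays: with 1 of them left out, some members passed. Calls over all genes also went from 0 to many in some fits with an array left out. Such a pass is therefore not particular to the AP-1 genes. For the members that passed, only the sizes are given. Without the 48 h array, the difference of thapsigargin responses was -0.86 for Fos, -2.53 for Fosl2 and -1.52 for Junb. Without the 60 h array it was -2.95 for Fosl2, -1.12 for Fos, 0.92 for Jund and -0.80 for Maff. The difference of LPS responses was then 1.41 for Fos, 2.03 for Fosl2 and 1.13 for Maff. Both differences of Fosl1 were then taken against the array under the floor and have no exact size. In these fits the lone CD14-deficient LPS array was assumed to vary like the other groups, and the gap between the 2 arrays no longer entered the spread. The same holds for every call named above as kept or gained with 1 of these 2 arrays left out.

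The term for 60 h against 48 h over the 4 stimulated conditions likewise called 0 genes (0%), with 734 at an unadjusted p under 0.05, of which Fosl1 gave 0.69 ± 0.25 (limma adjusted p = 0.475) and Maff -0.31 ± 0.12 (adjusted p = 0.503).

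Over the 10 arrays Fosl2 spanned 3.83 on the log2 scale and Fosl1 3.70, more than 95.3% and 94.7% of the 7474 genes. The span of Fosl1 runs down to 1 array at the floor, that of CD14-deficient LPS cells at 48 h, and so has no exact size. Fos spanned 1.97, Junb 1.84, Maff 1.70, Jun 1.32, Batf 0.91 and Jund 0.83, and the median gene 1.26. Within the family, the centred profiles closest to each other by root mean squared log2 difference over the 10 arrays were those of Jun and Batf (0.29) and of Junb and Maff (0.33), and the farthest those of Fosl2 and Jund (1.54). By the same measure, the genes nearest to Fosl2 were 6820431F20Rik (0.32) and Klhl24 (0.34), where the median gene lay at 1.41. Nearest to Fos were Msra (0.21) and Dusp7 (0.22, median gene 0.74), to Fosl1 Bcar1 (0.35) and Edn1 (0.37, median gene 1.12), to Maff D8Ertd738e (0.10) and Riok3 (0.13, median gene 0.66), to Junb Ubfd1 (0.19) and Fgfr1op2 (0.22, median gene 0.80), and to Jun Btd (0.15) and B4gat1 (0.16, median gene 0.54). The 10 arrays of these profiles share a pair of genotypes and fall into few conditions.

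Genes around the family were read from 5 lists. Of 17 tested basic leucine zipper relatives and their partners, LPS in wild-type cells called 5 higher and 0 lower, where 7.69% and 8.24% of all genes were called, and in CD14-deficient cells 1 higher and 0 lower, where 2.17% and 2.01% were. The list's median change was 0.39 and 0.41 in the 2 genotypes, against -0.03 and 0.03 over all genes. Atf4, which drives the amino acid and stress response, and Ddit3, the CHOP protein of that response, were 2.34- and 4.65-fold higher with CD14 than without under LPS (limma adjusted p = 0.0169 and 0.0348). Thapsigargin raised the same 2 genes 3.08- and 6.89-fold in CD14-deficient cells (adjusted p = 0.0109 and 0.0184). Irf8, a partner of BATF, rose 3.86-fold with CD14 and 6.69-fold without (adjusted p = 0.0103 and 0.0118), and Irf4, another partner, was 5.28-fold lower with CD14 than without under LPS (adjusted p = 0.0308).

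Of 20 tested genes of the MAP kinase cascade, LPS called 2 higher and 1 lower in wild-type cells, near the 7.69% and 8.24% of all genes, and 0 in CD14-deficient cells (2.17% and 2.01%), with medians of 0.09 and 0.04. Rps6ka3, which encodes the ERK-activated kinase RSK2, fell 6.38-fold in wild-type cells (limma adjusted p = 0.00598), and thapsigargin lowered it 3.24-fold in CD14-deficient cells (adjusted p = 0.0195). Map2k6, a kinase upstream of p38, rose 4.62-fold with LPS in wild-type cells (adjusted p = 0.0249). Of 13 tested brakes on the cascade, LPS called 3 higher in wild-type and 2 in CD14-deficient cells, where 7.69% and 2.17% of all genes were, and 0 lower in either. The phosphatase genes Dusp14 and Dusp16 were called in both, Dusp14 at 16.1-fold and 17.0-fold (adjusted p = 0.00803 and 0.0185). Dusp10, a phosphatase of JNK and p38, read 424 and 504 in wild-type and 73.7 and 43.7 in CD14-deficient LPS cells, an 8.14-fold difference (adjusted p = 0.0169). Thapsigargin raised Dusp10 5.81-fold without CD14 (adjusted p = 0.0178).

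The list of 14 other tested immediate early genes had 2 called higher and 5 lower with LPS in wild-type cells, where 7.69% and 8.24% of all genes were called, and 1 higher and 1 lower in CD14-deficient cells (2.17% and 2.01%), with medians of -0.74 and -1.42. Myc and Egr2 fell 7.29- and 10.6-fold in wild-type cells (limma adjusted p = 0.0196 and 0.0202). Gadd45b, a stress gene that acts on MAP kinases, rose 5.45-fold with CD14 and 4.04-fold without (adjusted p = 0.00173 and 0.00692). Klf4 fell 7.75-fold with LPS in CD14-deficient cells and was raised 4.73-fold there by thapsigargin (adjusted p = 0.0185 and 0.0179). Between the genotypes under LPS, 4 of the 14 were called higher with CD14 and 0 lower (2.61% and 2.57% of all genes), at a median of 0.39.

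Of 21 tested textbook AP-1 targets, LPS called 7 higher and 1 lower in wild-type cells and 5 higher and 2 lower in CD14-deficient cells, where 7.69% and 8.24%, and 2.17% and 2.01%, of all genes were called; the medians were 0.97 and -0.00. Ptgs2, the inducible cyclooxygenase, rose 93.1-fold with CD14 and 36.9-fold without (limma adjusted p = 0.000315 and 0.000607), and Il6 94.6- and 87.0-fold (0.00161 and 0.00396). Between the genotypes under LPS, 5 were called higher with CD14 and 0 lower (2.61% and 2.57% of all genes), at a median of 1.15. Ccl2, a chemokine for monocytes, read 8854 in unstimulated wild-type cells and 6312 in unstimulated CD14-deficient cells. After LPS it read 9460.0 and 11047 with CD14 and 705 and 1133 without, an 11.4-fold difference (adjusted p = 0.00168). LPS lowered it 7.07-fold in CD14-deficient cells (adjusted p = 0.00531). Thapsigargin called 5 of the 21 higher and 1 lower in CD14-deficient cells (3.43% and 3.2% of all genes), at a median of 0.87, and 0 in wild-type cells (0.0535%) at -0.10. Ccl2 rose 3.91-fold in the former (adjusted p = 0.0109), yet remained 2.93-fold lower than in wild-type LPS cells (adjusted p = 0.0382). At 3154 and 3861 it was also below the unstimulated CD14-deficient array. Mmp10, a matrix metalloprotease, read 255 and 925 in wild-type LPS cells and 4.32 and 77.0 without CD14, the first of the latter under the floor.

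**Figure D4:**
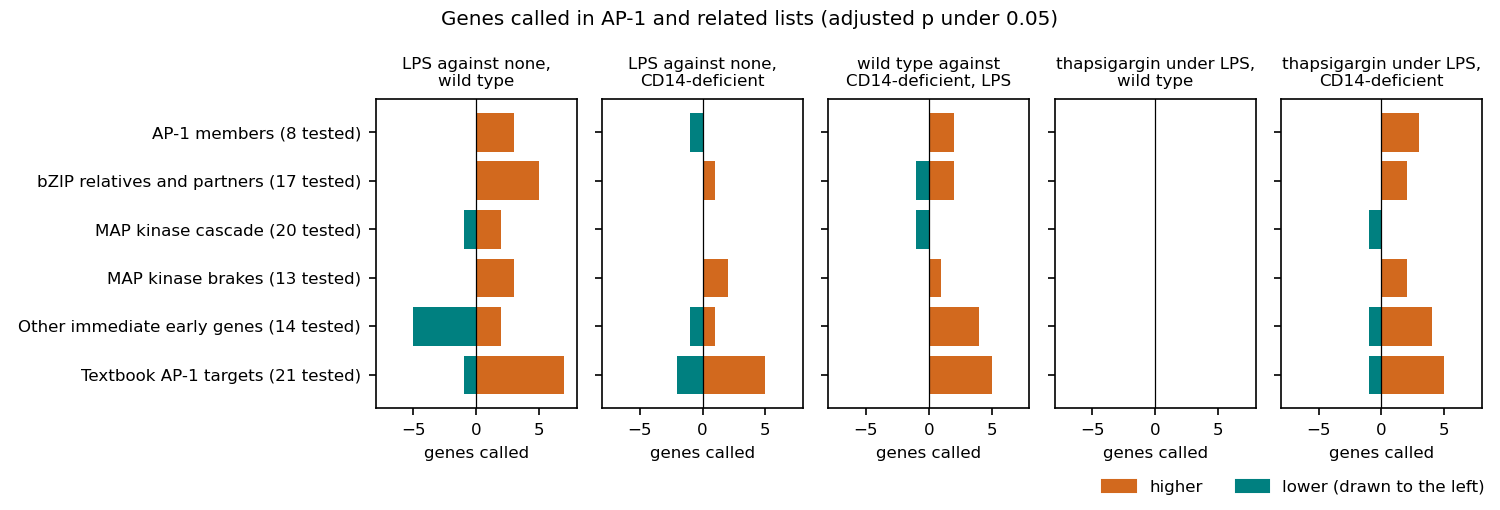
Number of genes called at an adjusted p under 0.05 in the AP-1 family and in the 5 related lists, for 5 comparisons, with genes called higher drawn to the right and lower to the left. Thapsigargin under LPS called no gene of any of the 6 lists in wild-type cells, where 0.0535% of all genes were called. In CD14-deficient cells it called 3 AP-1 genes higher and 0 lower, and 5 textbook targets higher and 1 lower. Of all genes, 3.43% were called higher there and 3.2% lower. The 3 AP-1 genes count Fosl1, which only arrays with thapsigargin admitted to the test, and Fosl2, which only 6 stimulated arrays admitted.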

How the data were processed

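RNA from the 10 cultures was hybridised to single-colour Affymetrix arrays. The deposited values are linear probe set intensities that the authors computed with MAS5, per the submitters' processing notes; the sources used here give neither its version nor its target. Each array was multiplied to a common 2% trimmed mean of 509 (the deposited ones ran from 444 to 553), signals under the pooled 25th percentile of 13.4 were raised to it, and log2 was taken. Symbols came from the platform table: 20380 probe sets had 1 symbol, 691 several and 1619 none. A gene took its probe set with the highest mean, and genes above the pooled median of 99.2 on at least 2 arrays were kept.

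All 10 arrays entered 1 limma 3.58.1 fit (R 4.3.3) with 6 levels of genotype and treatment and a 60 h against 48 h term. eBayes used an intensity trend, with 3 residual and 2.95 prior degrees of freedom. Tests were two-sided, with Benjamini-Hochberg adjustment over 7474 genes. Without repeated conditions the spread is how far the 48 and 60 h arrays depart from a common shift. It holds no spread between cultures or mice, and the small number of arrays limits precision.

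All 9 members were named. From each related list the text names genes among the up to 3 with the smallest adjusted p past 0.05 in a comparison, and for each member spanning at least 1 in log2 the 2 genes nearest to it. The members and lists were chosen with earlier results of these data known. Alternatives covered scaling, floor, filter, probe set choice, trend, time term and each array left out.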

Additional observations from a re-analysis of the deposited data

Results flagged for a closer look

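These results were singled out because both arrays of one genotype moved in the opposite direction to both arrays of the other, and in each the difference itself was tested with limma over all genes and did not pass with all 10 arrays. The difference between the thapsigargin responses of Fos, wild type minus CD14-deficient, was -0.99 on the log2 scale (adjusted p = 0.226). The difference between the LPS responses of Fosl1 was 1.75 (adjusted p = 0.566), with the CD14-deficient 48 h array under the floor. For Jund, the difference between the LPS responses was -0.54 (adjusted p = 0.644) and that between the thapsigargin responses was 0.82 (adjusted p = 0.275). With the CD14-deficient LPS array at 60 h left out, the difference of thapsigargin responses was -1.12 for Fos and 0.92 for Jund. That of LPS responses for Fosl1 was then taken against an array under the floor and has no exact size. Without the 48 h array the value for Fos was -0.86. Such fits keep 1 CD14-deficient LPS array, so the gap between the 48 h and 60 h arrays of that condition does not enter the spread.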

How the results depend on the processing

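No paired analysis was possible because each condition has 1 array and the labels share no other replicate number. The 17 calls of AP-1 genes were tested again 161 times under other scalings, floors, filters, probe set choices, trend and time settings, and 144 of these kept the call and 17 lost it; with an array left out, 85 of 158 kept it and 73 lost it. Among values not called at first, other processing gave 6 new calls and 16 changes of sign, and left-out arrays 35 and 30. No called value reversed (0 in each). A filter on the mean above the 60th percentile left fewer genes, without Fosl2 and Fosl1. It called 1 AP-1 gene for LPS in wild type, the genotypes under LPS and thapsigargin without CD14, and 2 for LPS with thapsigargin in wild type. No filter gave 1, 1 and 2 for the last 3 of these. With an array left out, calls over all genes also rose in some fits for every comparison listed next. A high AP-1 count there is therefore not particular to the family. With each array left out in turn, the AP-1 calls ran from 0 to 5 for LPS in wild type, 0 to 3 for LPS without CD14, 0 to 5 for the genotypes under LPS, 0 to 1 for thapsigargin in wild type, 0 to 5 for thapsigargin without CD14, 0 to 5 and 1 to 5 for LPS with thapsigargin in wild-type and CD14-deficient cells, 0 to 1 for CD14-deficient thapsigargin cells against wild-type LPS cells, 0 to 4 for the difference of LPS responses and 0 to 5 for that of thapsigargin responses. Over all genes the calls ran from 723 to 1658 under other processing and 170 to 3281 with an array left out for LPS in wild type (1191 here), 105 to 557 and 2 to 3309 for the genotypes under LPS (387) and 153 to 782 and 0 to 2894 for thapsigargin without CD14 (495). Without scaling, the median gene moved from 0.03 to 0.16 for LPS without CD14, from -0.06 to -0.27 for the difference of LPS responses and from -0.01 to 0.16 for the unstimulated genotypes. Of the genes called for LPS with thapsigargin in wild type, 54.9% were higher, and 40.7% without scaling; for thapsigargin in wild type, where 4 genes were called, 25% were higher, 5.88% without scaling and 0% after quantile normalization. Signals near the floor, as for Fosl1 and Fosb, do not separate a low level from background.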
